A study of Mus musculus with 12 samples.

Results

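The genes of the Kv1 potassium channels were followed in mouse hippocampal RNA-seq counts. They comprise the alpha subunit genes *Kcna1* to *Kcna6* and the Kv beta subunit genes *Kcnab1* to *Kcnab3*, chosen by symbol and matched by Ensembl gene ID, and are 9 of the 37991 genes counted. All 9 were among the 16399 genes with enough reads to be tested. Poly(A) RNA came from the hippocampi of 12 C57BL/6N mice aged 6 to 7 months, each taken 1 h after the passive avoidance (PA) test, in which a mouse learns to keep out of a compartment where it was shocked. In the labels 6 mice are wild type (*Gadd45a*-WT) and 6 are *Gadd45a*-/- (*Gadd45a*-KO), siblings bred from heterozygous parents. *Gadd45a* encodes a stress-inducible regulatory protein, and the knockout allele, present in every cell, has a neomycin resistance cassette in place of exons 1 to 3. Every mouse was tested, so no group without PA enters the comparison. The question put to the counts was whether the *Kcna* genes, each with its whole coding sequence in a single exon, differ between the labels together or one by one.

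Kv1 channels are voltage-gated potassium channels of the Shaker family. Alpha subunits assemble as tetramers, of one or of several kinds, around a central pore, and open at voltages close to the firing threshold, so that they restrain spiking in axons and transmitter release at terminals. Beta subunits bind the cytoplasmic side of the tetramer, assist its delivery to the membrane and, in some combinations, speed its inactivation. In the hippocampus the products of *Kcna1*, *Kcna2* and *Kcna4* are known mainly from axons and terminals, whereas that of *Kcna3* is best known from lymphocytes and microglia.

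All 6 *Kcna* genes had 1 coding exon in the annotation of genome build NCBIM37, and *Kcna3* and *Kcna5* had 1 exon in all. The beta subunit genes had 14 coding exons in *Kcnab1*, 16 in *Kcnab2* and 14 in *Kcnab3*. The stretch that encodes the potassium selectivity filter, the part of the pore common to all of these channels, is printed for each alpha subunit gene. It shows base differences in and around 5 codons that encode the same residues in all 6 genes. Each line holds 30 coding bases read 5′ to 3′ on the gene's own strand, and the capitals mark the 5 filter codons.
Kcna1: atgaccACTGTGGGATACGGTgacatgtac
Kcna2: atgacaACTGTAGGCTATGGAgacatggtt
Kcna3: atgacaACTGTTGGTTATGGTgatatgcac
Kcna4: atgacaACTGTGGGCTATGGGgacatgaag
Kcna5: atgaccACTGTAGGCTACGGGgacatgagg
Kcna6: atgaccACGGTAGGTTATGGGgacatgtac
In NCBIM37 these bases lie at chr6:126592237-126592266 on the minus strand for *Kcna1*, chr3:106908136-106908165 on the plus strand for *Kcna2* and chr3:106840523-106840552 on the plus strand for *Kcna3*. Those of *Kcna4* lie at chr2:107136646-107136675 on the plus strand, and those of *Kcna5* and *Kcna6* at chr6:126483754-126483783 and chr6:126688656-126688685 on the minus strand. Between any pair of genes 4 to 9 of the 30 bases differed, fewest between *Kcna4* and *Kcna5* and most between *Kcna3* and *Kcna5*. Within the filter codons 2 to 5 bases differed. Within exons, no window of 51 bases, the length of a read, was shared between members except for 77 windows common to *Kcna5* and *Kcna6*. Only uniquely aligned reads were counted, with strand taken into account, so reads that aligned to both of these genes were left out. Windows across exon junctions and matches with mismatched bases were not examined.

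The targeted gene was examined first. Levels are given as CPM, reads scaled to the library's total. *Gadd45a* measured 21.4 ± 1.07 CPM (mean ± SD, n = 6) under the *Gadd45a*-KO label but 2.58 ± 0.481 CPM under the *Gadd45a*-WT label, which is against the direction of the label. Counts per gene do not separate exon 4, which the knockout allele keeps, from the rest. The lncRNA *E230016M11Rik*, used as a further check of the locus, had 3.48 ± 0.206 and 0.163 ± 0.0691 CPM. Libraries are therefore named by label, and every direction given is that of the label. Between 44594261 and 55540601 reads per library fell on genes. Reads on no gene made up 14.4% to 15.8% of the total with the first label and 13.0% to 14.3% with the second. All 8 markers of hippocampal principal cells were detected in every library, with summed levels of 974 to 1008 and 782 to 1029 CPM. Summed thalamic markers reached 309 CPM in *Gadd45a*-KO replicate 2 and 463 CPM in replicate 3, against 93.4 to 136 CPM in the other 10 libraries. Summed oligodendrocyte markers reached 7470 CPM in *Gadd45a*-KO replicate 3 and lay between 2361 and 3806 CPM elsewhere. None of 50 markers of 8 cell types or regions passed 1% FDR (false discovery rate) in edgeR or DESeq2. At an unadjusted edgeR p under 0.05, 14 were higher with the *Gadd45a*-KO label and 0 lower, among them 6 of 8 thalamic and 7 of 7 oligodendrocyte markers. No count over all genes at that threshold was set beside these.

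Levels were compared between genes as CPM per kilobase of annotated exon (RPKM). In libraries labelled *Gadd45a*-WT the beta subunit gene *Kcnab2* stood highest with 155 ± 7.08 RPKM (mean ± SD, n = 6). *Kcna1* followed with 28.3 ± 2.21 RPKM and *Kcnab1* with 25.2 ± 0.771 RPKM, a narrow gap in which no library of one overlapped one of the other. *Kcna6*, *Kcna2* and *Kcnab3* had 11.3 ± 0.672, 11.2 ± 2.80 and 10.4 ± 0.798 RPKM and did not differ beyond their spread. *Kcna4* lay lower at 7.08 ± 0.657 RPKM, within the range of *Kcna2*. *Kcna3* with 0.841 ± 0.145 and *Kcna5* with 0.411 ± 0.0844 RPKM were at the bottom. The remaining Shaker-type genes were almost silent, since *Kcna7* had 0 to 2 reads per library and *Kcna10* 0 to 5, and neither was tested.

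Of the 9 genes, *Kcna3* fell in the libraries labelled *Gadd45a*-KO and none rose. At 1% FDR edgeR's quasi-likelihood test called 1 of 9 members lower, where 2.62% of all tested genes were lower, and 0 of 9 higher, where 0.0244% of all tested genes were higher. DESeq2 also called 1 lower and 0 higher, where it called 660 lower and 18 higher over all genes. At an unadjusted edgeR p under 0.05 there were 2 lower and 0 higher members, with no count over all genes to set beside them. At 5% FDR 2 of 9 were lower, *Kcna3* and *Kcna2*, where 4.43% of all tested genes were. Every library labelled *Gadd45a*-KO lay below every library labelled *Gadd45a*-WT for 1 of 9 members, again *Kcna3*, and for 3.12% of tested genes. The opposite order held for 0 of 9 members and 0.183% of tested genes. The median log2 fold change was -0.02 over the 9 members and 0.00 over all tested genes. These are calls on single genes, and no share of the family is read from them.

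**Figure D1:**
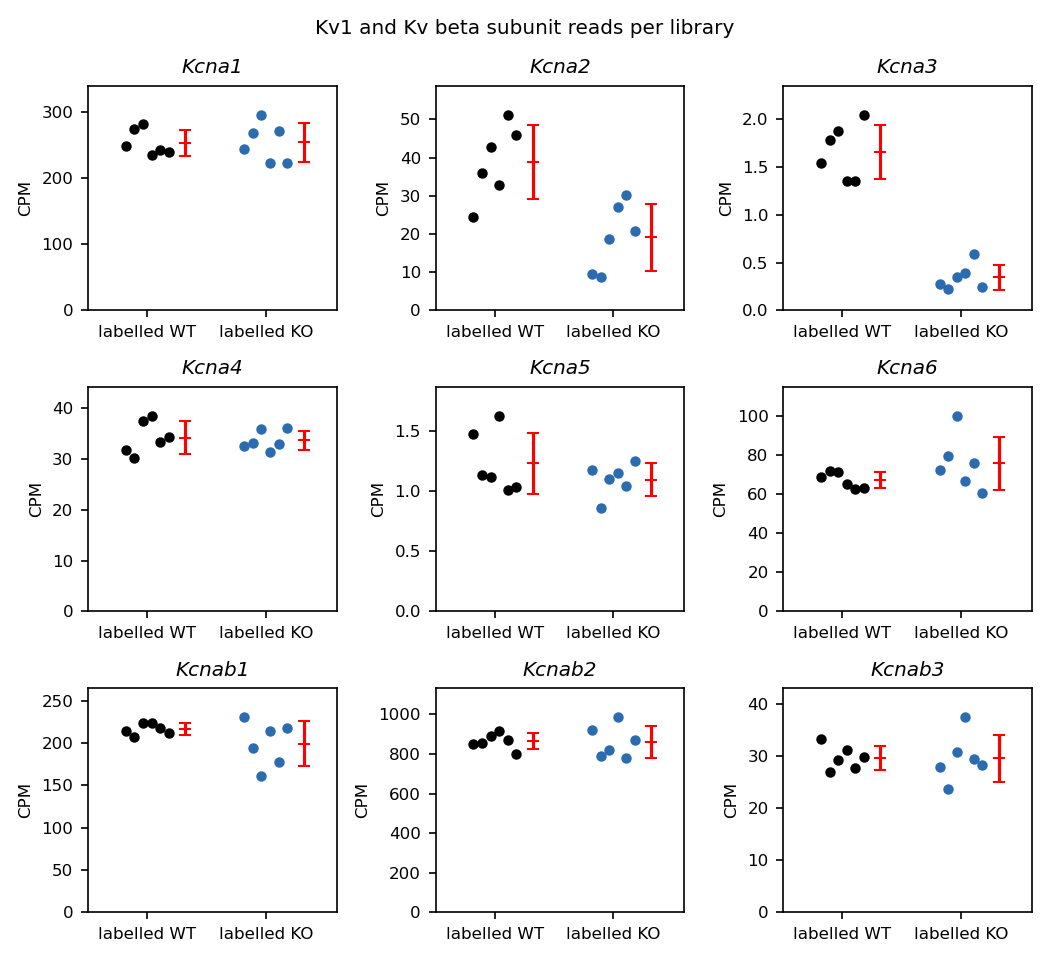
CPM of the 9 genes in each library (points, in order of replicate number from left to right), with the mean and SD of the 6 libraries of each label in red; the vertical axes start at 0 and differ between panels. *Kcna3* separates the labels completely, from 1.35 to 2.04 CPM against 0.220 to 0.585 CPM, *Kcna2* separates them in part, and the other 7 genes overlap.

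*Kcna3* encodes Kv1.3, a slowly inactivating delayed rectifier. In order of replicate number, its level was 1.54, 1.78, 1.87, 1.35, 1.35 and 2.04 CPM under the *Gadd45a*-WT label, with 70 to 102 reads behind each value. Under the *Gadd45a*-KO label it was 0.275, 0.220, 0.347, 0.391, 0.585 and 0.247 CPM, with 10 to 27 reads. The highest of the second group was thus well below the lowest of the first, though the reads behind it were few. The mean fell from 1.66 ± 0.286 to 0.344 ± 0.134 CPM, or to 20.8% of the *Gadd45a*-WT level. The log2 fold change was -2.26 (SE 0.20, 95% interval -2.70 to -1.83), with a Benjamini-Hochberg adjusted p of 1.45e-05 in edgeR. Only 2 of the 16399 tested genes had a lower log2 fold change. An exact permutation test over the 12 libraries gave a two-sided p of 0.00216, the smallest that 6 against 6 can give. In bulk tissue fewer cells that carry a transcript and less of it per cell cannot be told apart. Of the 8 microglial markers 0 were called by edgeR or DESeq2, and 0 had an unadjusted edgeR p under 0.05. Their sums were 350 to 387 CPM with the *Gadd45a*-WT label and 372 to 430 CPM with the *Gadd45a*-KO label. Which cells the reads of *Kcna3* came from was not tested. Without *Gadd45a*-KO replicates 2 and 3, the libraries with high thalamic markers, *Kcna3* was still called, with a log2 fold change of -2.15 and an adjusted p of 0.000165 in edgeR.

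*Kcna2* encodes Kv1.2, a delayed rectifier of axons that pairs with Kv1.1. Mice 1 to 6 under the *Gadd45a*-WT label had 24.3, 35.9, 42.7, 32.8, 51.05 and 45.9 CPM. Those under the *Gadd45a*-KO label had 9.57, 8.83, 18.7, 27.2, 30.1 and 20.7 CPM. In this group 4 of 6 libraries lay below every library of the other, and replicates 4 and 5 overlapped it. The means were 38.8 ± 9.68 and 19.2 ± 8.78 CPM, and the log2 fold change of -1.02 (SE 0.27, 95% interval -1.60 to -0.43) had an adjusted p of 0.0494 in edgeR, which passed 5% but not 1% FDR. The exact permutation p was 0.00866 before any adjustment over genes. The 5% call depended on the processing. In edgeR the adjusted p was 0.0517 with RLE size factors and 0.0535 with at least 10 reads required in every library. With an offset for transcript length it was 0.0549. It was 0.0365 in edgeR with no filter and 0.0396 in DESeq2. *Kcna2* was also the most variable of the more abundant members, with a coefficient of variation of 25.0% and 45.8% in the libraries of each label, where *Kcna1* had 7.80% and 11.4%. The adjusted p stayed under 0.05 when *Gadd45a*-WT replicate 1 or *Gadd45a*-KO replicate 4 or 5 was left out, and rose to between 0.0688 and 0.140 without any of the other 9 libraries in turn. Without both libraries with high thalamic markers the log2 fold change was -0.83 with an adjusted p of 0.158 in edgeR.

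The other 4 alpha subunit genes gave no call. *Kcna1*, which encodes Kv1.1, the axonal channel whose loss causes seizures, had 249, 275, 282, 236, 243 and 239 CPM in mice 1 to 6 under the *Gadd45a*-WT label. The *Gadd45a*-KO label gave 244, 269, 296, 224, 272 and 224 CPM. The range of the second group enclosed that of the first, and the log2 fold change was 0.00 with a 95% interval from -0.15 to 0.16. *Kcna4*, which encodes the fast-inactivating A-type subunit Kv1.4, ranged from 30.2 to 38.4 CPM and from 31.4 to 36.1 CPM, with a log2 fold change of -0.02 and an interval from -0.15 to 0.10. The intervals of *Kcna1* and *Kcna4* held neither the fold change of *Kcna2* nor that of *Kcna3*.

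*Kcna6*, which encodes the delayed rectifier Kv1.6, pointed the other way. Its levels were 68.8, 71.6, 71.2, 65.0, 62.7 and 63.1 CPM under the *Gadd45a*-WT label and, under the *Gadd45a*-KO label, 72.3, 79.4, 99.7, 66.5, 75.7 and 60.7 CPM. In the latter group 4 of 6 libraries lay above every library of the former, and replicate 6 lay below all of them. The log2 fold change of 0.18 (SE 0.09) did not pass the test (adjusted p = 0.448 from edgeR). It was 0.09 without *Gadd45a*-KO replicate 3 and 0.04 without both libraries with high thalamic markers. The part of thalamic or oligodendrocyte RNA in the level of *Kcna6* was not tested. *Kcna5*, which encodes Kv1.5, a channel best known from heart and vessels, had 51 to 90 and 39 to 66 reads, or means of 1.23 ± 0.253 and 1.10 ± 0.138 CPM. Its log2 fold change was -0.17 with an interval from -0.47 to 0.14, so that with so few reads a moderate difference was not detectable, while one of the size of *Kcna3* lay outside the interval.

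**Figure D2:**
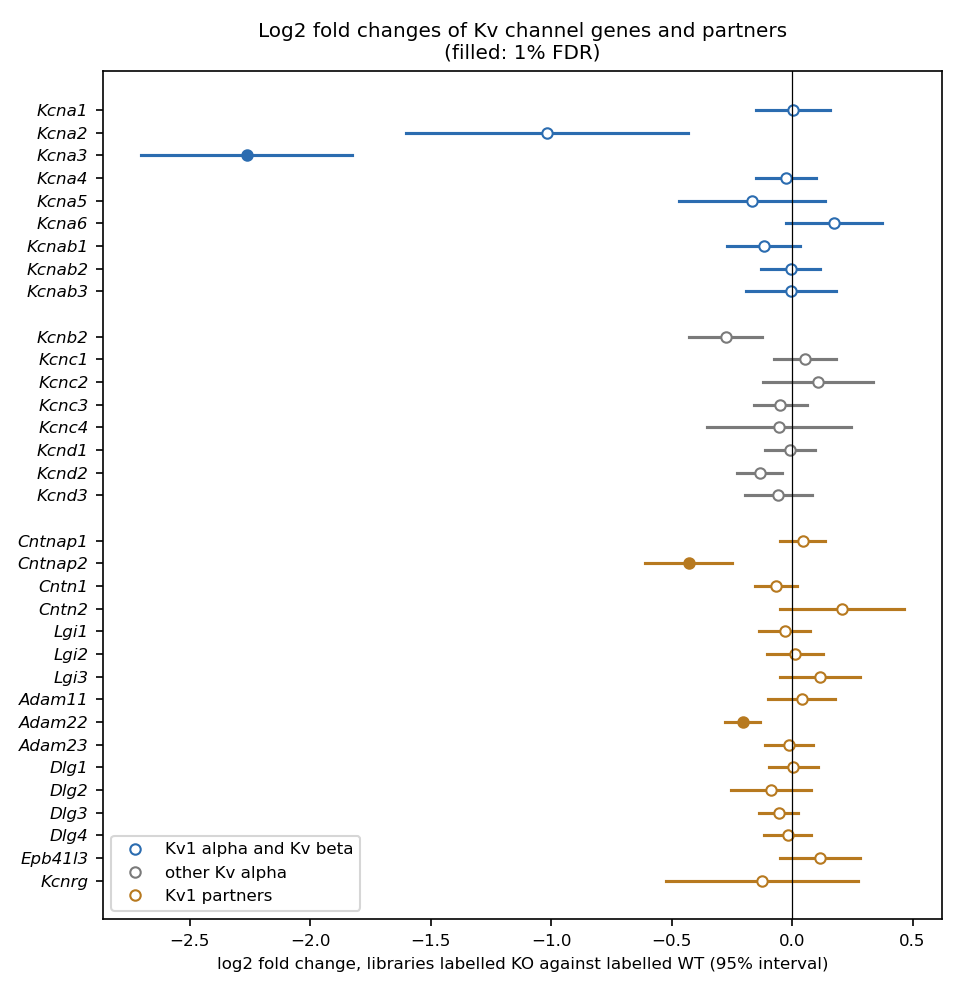
Log2 fold changes between libraries labelled *Gadd45a*-KO and *Gadd45a*-WT, 6 of each, with 95% intervals from edgeR for the 9 Kv1 and Kv beta genes, 8 other Kv alpha genes and 16 tested partner genes; filled points passed 1% FDR. *Kcna3* at -2.26 and *Kcna2* at -1.02 lie apart from all other genes shown, which range from -0.43 to 0.21.

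Whether the *Kcna* genes moved by different amounts was tested on their ratios within each library. Library scaling cancels in these ratios apart from the prior count, a small count added to every gene. It weighs most on genes with few reads, such as *Kcna3* and *Kcna5*. For each of 15 pairs, the log2 ratio (log2 CPM with a prior count of 2) was compared between the labels by a two-sided exact permutation test, with Benjamini-Hochberg adjustment over the 15 pairs. In all 5 pairs with *Kcna3* the ratio shifted. The log2 ratio of *Kcna1* to *Kcna3* was 7.24 ± 0.21 (SD, n = 6) with the *Gadd45a*-WT label and 9.43 ± 0.45 with the *Gadd45a*-KO label, a difference of 2.19 ± 0.20 (SE) without overlap between libraries (exact permutation p = 0.00216, adjusted p = 0.00812). Between *Kcna2* and *Kcna3*, the genes that were both lower, it was 4.49 ± 0.41 and 5.56 ± 0.48, so that *Kcna3* was lower still by 1.07 ± 0.26 (exact permutation p = 0.00649, adjusted p = 0.0162). The other 3 pairs with *Kcna3* differed by -2.35 to -2.04 in the ratio of *Kcna3* to *Kcna4*, *Kcna5* or *Kcna6*. The ratio of *Kcna1* to *Kcna2* differed by 1.12 ± 0.36 (adjusted exact permutation p = 0.0162). That of *Kcna2* to *Kcna4* differed by -1.10 ± 0.34 (0.0216) and that of *Kcna2* to *Kcna6* by -1.28 ± 0.38 (0.0162). The ratio of *Kcna2* to *Kcna5* differed by -0.97 ± 0.38 and had an adjusted exact permutation p of 0.0519.

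Among the genes without a call of their own, *Kcna1* and *Kcna6* shifted slightly against each other, the log2 ratio being 1.92 ± 0.05 and 1.76 ± 0.11, a difference of -0.16 ± 0.05 (exact permutation p = 0.00866, adjusted p = 0.0162). The other 5 pairs differed by 0.31 or less in size and did not pass. Thus 9 of 15 pairs passed 0.05. The pairs share genes and are not independent, and all that passed, except *Kcna1* to *Kcna6*, held *Kcna2* or *Kcna3*. When both libraries with high thalamic markers were left out, 5 pairs remained under 0.05, and all 5 held *Kcna3*. The ratio of *Kcna1* to *Kcna2* then differed by 0.83 ± 0.41 (adjusted exact permutation p = 0.0536), and those of *Kcna2* to *Kcna4* and *Kcna6* by -0.87 ± 0.41 (0.0556) and -0.94 ± 0.42 (0.0510). That of *Kcna1* to *Kcna6* differed by -0.11 ± 0.04 (adjusted exact permutation p = 0.0510). With 4 libraries against 6 the smallest unadjusted p is 0.00476.

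**Figure D3:**
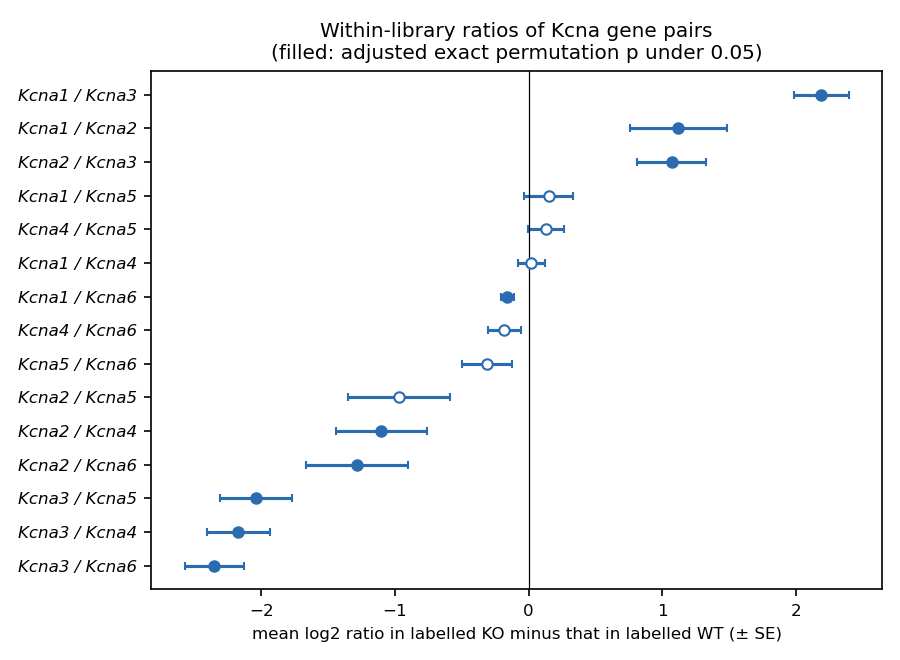
Difference between the labels in the mean log2 ratio of each pair of *Kcna* genes within a library (labelled *Gadd45a*-KO minus labelled *Gadd45a*-WT, ± SE, 6 libraries each); filled points are the 9 pairs with an adjusted exact permutation p under 0.05. The 5 pairs with *Kcna3* differ by 1.07 to 2.35 in size, and the pairs among *Kcna1*, *Kcna4*, *Kcna5* and *Kcna6* by 0.31 or less.

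The make-up of the alpha subunit transcripts was described by the share of each gene in their sum. The summed RPKM of *Kcna1* to *Kcna6* was 59.2 ± 3.79 with the *Gadd45a*-WT label, from 54.2 to 64.9, and 54.2 ± 5.73 with the *Gadd45a*-KO label, from 49.2 to 63.1, so that the groups overlapped. The share of *Kcna2* had a median of 18.1% (13.0% to 24.5%) and of 10.4% (4.81% to 15.4%). That of *Kcna3* was 1.46% (1.14% to 1.75%) and 0.281% (0.210% to 0.502%). *Kcna1* held a median of 47.8% and 51.7%, *Kcna6* 19.0% and 23.3%, *Kcna4* 11.9% and 12.8%, and *Kcna5* 0.604% and 0.668%. Shares add to a whole, so a lower share of *Kcna2* raises the others, and no test was run on them.

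**Figure D4:**
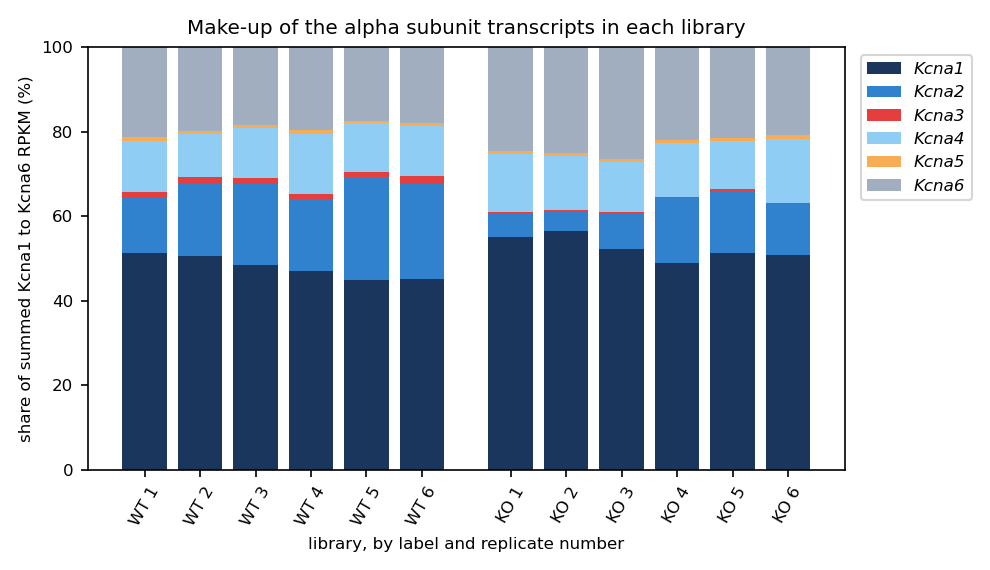
Share of each *Kcna* gene in the summed RPKM of *Kcna1* to *Kcna6*, for each library by label and replicate number. *Kcna1* makes up 44.8% to 56.4% everywhere, and the band of *Kcna2* narrows from 13.0% to 24.5% in libraries labelled *Gadd45a*-WT to 4.81% to 15.4% in those labelled *Gadd45a*-KO.

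The genes were next compared across the mice of one label. Over the 6 libraries of a label, *Kcna1*, *Kcna2*, *Kcna4* and *Kcna6* gave 12 correlations of log2 CPM. *Kcna1* and *Kcna6* had the highest in both labels. Pearson's r was 0.884 with the *Gadd45a*-WT label (exact permutation p = 0.0278, adjusted over the 12 p = 0.167) and Spearman's rho 0.714 (exact permutation p = 0.136, adjusted p = 0.817). With the *Gadd45a*-KO label r was 0.936 (exact permutation p = 0.00417, adjusted p = 0.05) and rho 0.943 (exact permutation p = 0.0167, adjusted p = 0.200). Leaving out the 2 libraries farthest from the median of *Kcna1* gave r of 0.620 and 0.947. None of the 12 had an adjusted p below 0.05. *Gadd45a*-KO replicates 2 and 3, with the high thalamic marker sums, held the 2 highest levels of *Kcna6* in their group, 79.4 and 99.7 CPM.

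*Kcna2* and *Kcna3*, which lie 63.4 kb apart on chromosome 3, had a correlation of 0.659 over the 12 libraries after the mean of each label was removed, described here without a test. Genes whose label-centred log2 CPM was most like that of *Kcna2* over the 12 libraries included *Gm10010* (r = 0.984), *Trpc5* (0.971), *Wdfy2* (0.964) and *Gm5567* (0.964). *Trpc5*, which encodes a cation channel, also fell with the *Gadd45a*-KO label, with a log2 fold change of -1.60 and an adjusted p of 3.83e-06 in edgeR. The genes most like *Kcna3* were *RP23-242C19.5* (0.913), *Gm13589* (0.908), *Atf7ip* (0.899), *Dsc3* (0.879) and *Lcor* (0.862). Of these *Lcor*, a nuclear corepressor gene, fell too (log2 fold change -2.23, adjusted p = 9.58e-07 from edgeR). The libraries share depth and dissection, and *Kcna3* has few reads.

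**Figure D5:**
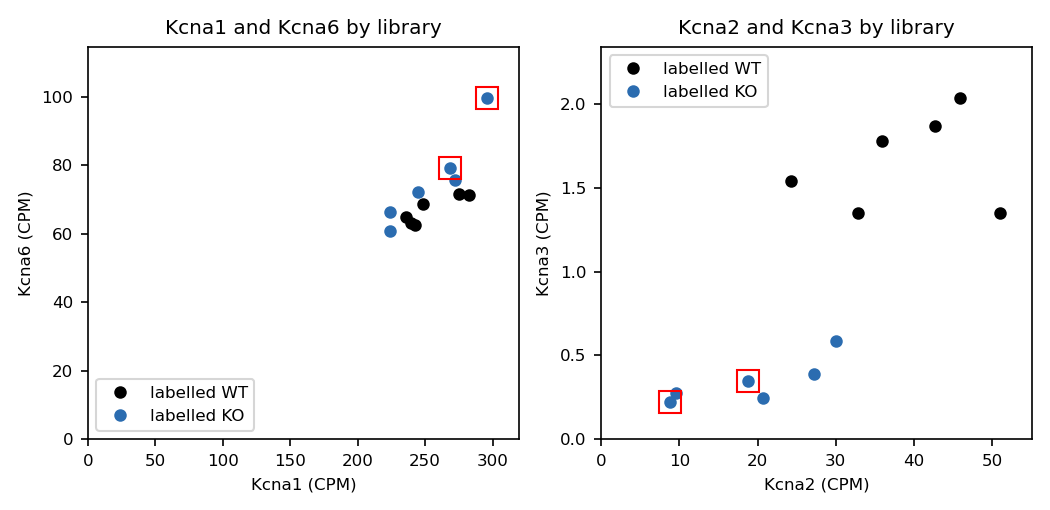
CPM of *Kcna6* against *Kcna1* and of *Kcna3* against *Kcna2* in the 12 libraries; red squares mark *Gadd45a*-KO replicates 2 and 3, with the highest thalamic marker sums. The labels overlap along each axis in the first panel, where *Kcna6* ranges from 60.7 to 99.7 CPM, and separate along *Kcna3* in the second.

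By position 5 of the 6 alpha subunit genes fall into 2 clusters. *Kcna3* (ENSMUSG00000047959) lies on the plus strand of chromosome 3 from 106839080 to 106841047, and *Kcna2* (ENSMUSG00000040724) on the same strand from 106904485 to 106909797, 63.4 kb further on. *Kcna5*, *Kcna1* and *Kcna6* lie together on the minus strand of chromosome 6 between 126482571 and 126690680, 59.5 Mb from *Gadd45a* on the same chromosome. *Kcna4* stands alone on chromosome 2 from 107130796 to 107138659, and the beta subunit genes lie apart from both clusters, *Kcnab1* on chromosome 3 from 64913306 to 65182145, *Kcnab2* on chromosome 4 and *Kcnab3* on chromosome 11. Thus the genes that were lower at 5% FDR, *Kcna2* only narrowly, are the 2 of the chromosome 3 cluster. None of the 3 on the chromosome of the knocked-out gene was called.

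Among 10 other tested genes within 500 kb of *Kcna3* and *Kcna2*, 1 was lower and 0 were higher at 1% FDR in edgeR and DESeq2. Of all tested genes 2.62% were lower and 0.0244% higher in edgeR. At an unadjusted edgeR p under 0.05, 1 neighbour was lower and 1 higher, with no count over all genes beside them. The median log2 fold change was 0.03. The gene called lower was *AI504432*, chosen after its values were seen. It starts 1.38 kb after the annotated end of *Kcna3* on the same strand. It had 7.57, 8.41, 7.15, 6.56, 5.87 and 7.49 CPM under the *Gadd45a*-WT label, in order of replicate number. The *Gadd45a*-KO label gave 4.69, 4.24, 4.07, 3.33, 4.59 and 3.82 CPM, all below the other group. This is a log2 fold change of -0.80 (SE 0.10), with an adjusted p of 0.000217 in edgeR. Near *Kcna5*, *Kcna1* and *Kcna6*, 0 of 10 genes were called by edgeR or DESeq2, 0 had an unadjusted p under 0.05, and the median was -0.03.

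The beta subunit genes gave 0 calls in either direction in edgeR and DESeq2, and 0 of 3 had an unadjusted p under 0.05. *Kcnab2*, the most abundant member, ranged from 801 to 915 CPM and from 779 to 985 CPM, with a log2 fold change of -0.01 and a 95% interval from -0.13 to 0.12. *Kcnab3* ranged from 26.9 to 33.2 CPM and from 23.6 to 37.4 CPM, with -0.01 and an interval from -0.19 to 0.18. *Kcnab1*, whose product brings fast inactivation to Kv1.1, had 214, 207, 224, 224, 218 and 212 CPM in mice 1 to 6 under the *Gadd45a*-WT label. Under the *Gadd45a*-KO label the levels were 231, 194, 162, 215, 178 and 218 CPM, a wider spread that reached above and below the other group. The log2 fold change was -0.12 with an interval from -0.27 to 0.03. *Kcnab2* shares 125 exonic bases with *Gm16334* on the same strand.

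Proteins that place and modulate Kv1 channels were read from a list of 18 genes, of which all but *Kcna7* and *Kcna10* were tested. At 1% FDR 2 of 16 were lower and 0 higher by edgeR, where 2.62% of all tested genes were lower. DESeq2 gave the same counts, with 660 genes lower in all. At an unadjusted edgeR p under 0.05 there were 2 lower and 0 higher, again with no count over all genes to set beside them. The median log2 fold change of the 16 was -0.02. *Cntnap2*, which encodes Caspr2, the adhesion protein that clusters Kv1 channels beside nodes of Ranvier, had 89.4, 97.2, 106, 107, 127 and 94.2 CPM in mice 1 to 6 under the *Gadd45a*-WT label. The *Gadd45a*-KO label gave 72.0, 67.3, 77.1, 88.1, 72.3 and 84.7 CPM, all below. Its log2 fold change was -0.43 (SE 0.08, adjusted p = 0.00657 from edgeR).

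*Adam22*, which encodes the LGI1 receptor found with Kv1 channels, ranged from 223 to 247 CPM and from 193 to 212 CPM, again without overlap. Its log2 fold change was small, -0.20 (SE 0.03), with an adjusted p of 0.00215 in edgeR. After correction for transcript length *Cntnap2* stood at -0.39 on the log2 scale (edgeR adjusted p = 0.0136) and *Adam22* at -0.11 (0.0509). Without both libraries with high thalamic markers the values were -0.39 (0.0391) and -0.19 (0.0180). *Cntn2*, the partner of Caspr2 at the same site, had the highest log2 fold change of the list, 0.21 (adjusted p = 0.503 from edgeR), with 219 CPM in *Gadd45a*-KO replicate 3 and 116 to 141 CPM in the other 11 libraries. That is the library with the high oligodendrocyte markers, and their part in it was not tested.

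The genes most like *Kcna1* to *Kcna6*, the 9 alpha subunit genes of the Kv2, Kv3 and Kv4 families, had 0 calls at 1% FDR in edgeR, 1 lower in DESeq2 (*Kcnb2*, adjusted p = 0.00928) and 3 lower at an unadjusted p under 0.05. Over all genes 2.62% of those tested were lower at 1% FDR in edgeR, and DESeq2 called 660 lower. For the unadjusted p there is no count over all genes. The median log2 fold change of the 9 genes was -0.05. The highest was 0.11 for *Kcnc2*, a fast-spiking channel gene. *Kcnb2* fell at 5% FDR (-0.28, adjusted p = 0.0359 from edgeR), with no library of one label overlapping the other. Without both libraries with high thalamic markers it had -0.20 and an adjusted p of 0.167 in edgeR.

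The *Kcna* genes were also set beside all genes of the same structure, as a description without a test of the difference. Of 1114 tested genes with 1 coding exon, 1.89% were lower at 1% FDR (21 genes, exact 95% binomial interval 1.17% to 2.87%), and of 13783 with more, 2.79% (384 genes). Their median log2 fold changes were both 0.00. Among 474 genes with 1 exon in every transcript, as *Kcna3* and *Kcna5* have, 2.53% were lower.

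The annotated 3′UTR of the members ran from 120 bases in *Kcna3* to 5405 in *Kcna1*, with 1275 in *Kcna2*, 1615 in *Kcna4*, 802 in *Kcna5* and 3499 in *Kcna6*. Over all tested genes with an annotated 3′UTR, 8.49% were lower where it was over 3000 bases and 1.22% to 3.00% in the shorter classes. *Kcna1* and *Kcna6*, in the longest class, were not called, and *Kcna3*, in the class of up to 150 bases with 3.00% lower, was. These are annotated lengths only. The paper describes 3′UTRs that run beyond their annotated ends, and reads there were not examined, so the actual lengths in these genes are not known.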

How the data were processed

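The authors sequenced strand-specific poly(A) libraries (51-base single reads), aligned them with TopHat 1.4.1 to NCBIM37/mm9 and deposited whole read counts per Ensembl gene from HTSeq 0.5.4p3, not normalized. Their own comparison with DESeq 1.16.0 was not used here. From it, at 1% FDR, the paper lists *Kcna2* and *Kcna3* among the ion channel genes reduced in *Gadd45a*-KO mice. Here *Kcna3* passed 1% FDR in edgeR, while *Kcna2* passed 5% but not 1%. Up to 5 alignments per read were kept, and reads that did not align uniquely were left out of gene counts. Gene names, exons and sequences came from the GENCODE annotation and genome of the same build, an earlier release than the authors counted with, in which 37205 of 37991 IDs matched.

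Counts were filtered (filterByExpr), scaled by TMM and tested with edgeR 4.0.16 quasi-likelihood (R 4.3.3), 6 libraries labelled *Gadd45a*-KO against 6 labelled *Gadd45a*-WT without covariates, at 1% FDR over all 16399 tested genes. Standard errors were derived from the F statistic. On simulated counts for this comparison, 177 of 200 genes changed by 1 on the log2 scale were recovered with 2 other calls among 16281. Libraries of one label differed by more than counting error (chi-square per degree of freedom 9.03 to 40.8 over 30 pairs). Intervals on shares of genes cover counting error only. The members and lists were chosen with earlier results of these data known. The genes named are the members, *Gadd45a* and *E230016M11Rik*, genes of the partner and other Kv lists at 1% FDR or with the lowest and highest log2 fold change, the 5 genes most correlated with *Kcna2* and with *Kcna3*, and *Kcna7* and *Kcna10*. Results for 2 of these genes are not reported here. *AI504432* and *Kcnb2* were added after their values were seen. Alternatives were RLE size factors, no filter, at least 10 reads in every library, DESeq2 1.42.0, 5% FDR, the replicate number as a block, an offset for transcript length (spline with 5 degrees of freedom), a prior count of 0.5 and leaving out each library. Leaving out both libraries with high thalamic markers was added after the data were seen. Coverage along single transcripts was not used here.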

Additional observations from a re-analysis of the deposited data

Results flagged for a closer look

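A sample far from the others of its group was looked for in 52 groups of 6 libraries, 18 of them of the Kv1 and Kv beta genes. With Dixon's test about 1 group in 20 is picked out by chance, here 2.6, and 4 were found, none of them in a member. *Cntn2* had 219 CPM in *Gadd45a*-KO replicate 3, where the other 5 libraries of that label had 116 to 141 CPM. Summed oligodendrocyte markers were 7470 CPM in the same library and 3071 to 3806 CPM in the others. Summed microglial markers were 430 CPM in *Gadd45a*-KO replicate 6 and 372 to 387 CPM in the others. *E230016M11Rik* had 3.88 CPM in *Gadd45a*-WT replicate 6 and 3.27 to 3.47 CPM in the others.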

How the results depend on the processing

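*Kcna3* was lower at 1% FDR under every alternative, with log2 fold changes from -2.29 to -2.15, and from -2.46 to -2.16 when single libraries were left out. The labels do not say that libraries of equal replicate number share a litter, batch or day. Correlations of same-numbered deviations ran from -0.0761 to 0.262, 5 of 6 over 0.1, with a mean of 0.140 against -0.0279 for other numbers, and 1 of 6 libraries correlated best with its own number. With the replicate block 509 genes were lower, 391 of them among the 430, and 2 members were called, as with the length offset and block together, *Kcna2* reaching adjusted p of 0.00443 and 0.00576 in edgeR. With the block 0 of the 15 ratio pairs passed. Its 64 regroupings allow no p under 0.0312, and the smallest adjusted p was 0.0586. At 5% FDR 2 members, 726 lower and 20 higher genes were called. DESeq2 called 660 lower, 18 higher and 1 other Kv gene. With the length offset 10 genes were higher, 11 with the block too, and 0 partners were called.

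Leaving out single libraries gave 239 to 467 lower and 3 to 4 higher genes and 9 to 10 ratio pairs. The number of lower genes dropped by more than 1.5 times, to between 239 and 276, without *Gadd45a*-WT replicate 3, 5 or 6 or *Gadd45a*-KO replicate 1, 2 or 6. Without both libraries with high thalamic markers 199 genes were lower and 5 ratio pairs passed. Signs turned only for values near 0. *Kcna1* had -0.00071 with the block and -0.076 without those libraries. *Kcnab2* had 0.00055 with no filter, 0.0014 with at least 10 reads, 0.00097 with the length offset and 0.041 without those libraries. *Kcnab3* had 0.00062 with no filter, 0.0015 with at least 10 reads and 0.049 without those libraries, where *Kcnc2* had -0.040. With single libraries left out, *Kcna1* ranged from -0.037 to 0.048, *Kcna4* from -0.050 to 0.019, *Kcnab2* from -0.041 to 0.030 and *Kcnab3* from -0.077 to 0.059. The causes were not tested. Depth limits *Kcna3* and *Kcna5*, with 10 to 102 reads per library, most.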
